A study of Mus musculus with 6 samples.

Results

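The 8 genes described here encode secreted glycoproteins of the extracellular matrix, most of which act on cells more than they build fibers: *Sparc*, *Fn1*, *Postn*, *Tnc*, *Thbs1*, *Thbs2*, *Cthrc1* and *Spp1*. They were picked by name, as a family, from 19069 genes listed for the single-cell transcriptomes of AOM/DSS colon tumors, in which the carcinogen azoxymethane (AOM) and the colitis-inducing dextran sulfate sodium (DSS) give rise to adenomas. Cells negative for EPCAM, CD45 and CD31, which enriches fibroblasts, were sorted from the tumors of 6 mice into 384-well plates, 1 plate per mouse. All 6 mice were Zeb1 fl/fl. The 3 FibCtrl mice (plates 1, 3 and 4) lacked the Col6a1-Cre transgene and the 3 FibΔZeb1 mice (plates 2, 5 and 6) carried it, so that the transcription factor gene *Zeb1* is constitutively deleted where the Col6a1 promoter drives Cre, which the study restricts to fibroblasts. The study used age-matched littermates of both sexes, and mice are named here by their plate number. In SORT-seq each mRNA molecule of a well receives a molecular barcode near its 3′ end before amplification, so a count stands for a molecule and levels of different genes can be set side by side without division by length.

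Matricellular proteins bind integrins, syndecans and other receptors as well as collagens and growth factors, and thereby set adhesion, migration and local growth factor activity. Most are scarce in resting adult tissue and rise in wounds, in fibrosis and in tumor stroma, where fibroblasts and pericytes are among their sources. In the colon, telocytes (the fibroblasts that lie directly beneath the epithelium and send it BMP and Wnt signals) and the deeper, chemokine-producing fibroblasts called iCAFs in tumors are separate populations.

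All 8 genes are protein-coding. On mouse build GRCm38 they lie at chr11:55394500-55423183 (*Sparc*, minus strand), chr1:71585520-71653200 (*Fn1*, minus), chr3:54361109-54391037 (*Postn*, plus), chr4:63959785-64047015 (*Tnc*, minus), chr2:118111876-118127133 (*Thbs1*, plus), chr17:14665500-14694235 (*Thbs2*, minus), chr15:39076932-39087121 (*Cthrc1*, plus) and chr5:104435118-104441050 (*Spp1*, plus). Because Zeb1 binds E-boxes, promoters of RefSeq (GRCm38.p6, 250 bases before the transcript start to 50 after it) were searched on both strands for the E-box words CACCTG and CAGGTG. Promoters of 5 of the 8 genes were in the table used. The words were in the promoters of *Sparc* and *Spp1*, against 20.2% of all 32851 promoters, and the matched stretches are shown with the word in capitals, 5′ to 3′ on the strand of the gene. The word begins 1 base before the transcript start in *Sparc* (chr11:55420076-55420105, minus strand) and 98 bases before it in *Spp1* (chr5:104434989-104435018, plus strand). A match describes the letters of the window and says nothing of binding.
Sparc: gcaggagccccagaacagatgagaCAGGTG
Spp1: aaaccagaggaggaagtgtaggagCAGGTG

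Plates held 1575726 to 3699058 transcripts, and 1233 of 2304 wells passed the filter of 100 to 6000 genes and under 10% mitochondrial transcripts. Passing wells were classed by markers that hold none of the 8 genes. Of them, 473 were fibroblasts (157, 150, 6, 49, 101 and 10 in mice 1 to 6), with a median of 7593 to 16344.5 transcripts per cell and mouse. They comprised 194 iCAF-like cells, 142 telocyte-like cells and 137 other fibroblasts, of which 89 carried at least 3 of 5 genes of a *Cxcl13* and *Grem1* list. A further 77 cells were pericyte-like. Median fibroblasts expressed 9 or 10 of 10 fibroblast markers in each subtype, and the median pericyte-like cell 8 of 10 pericyte markers and 5 of 10 fibroblast markers. The pericyte-like cells also held 1907 to 2430 CPM (counts per 1e+06 transcripts of the sum) of a smooth muscle list with 5 of 5 genes detected, and 4 of 8 endothelial genes were detected in them at a summed 459 to 772 CPM, against at most 50.4 CPM in any fibroblast class, with *Cdh5*, *Kdr*, *Egfl7* and *Cldn5* at 0. The part of these other transcripts in the pericyte-like levels was not tested. Although sorted as CD45-negative, 426 wells were neutrophil-like (7.96% to 85.1% of the passing wells of a mouse), 66 were epithelial-like and 191 were not assigned. The same 384 well names are used on every plate, so a name shared between plates is not a shared cell. Mice 3 and 6, with 6 and 10 fibroblasts, stand apart from the others, and the file of mouse 6 names another flow cell, so that sequencing run and mouse cannot be told apart for it. Only sums of at least 10 cells entered the comparisons of cell classes, which left mice 1, 2 and 5 for iCAF-like cells and other fibroblasts and mice 1, 2 and 4 for telocyte-like and pericyte-like cells. Mice 3 and 6 had no such sum, so leaving out either of them repeats the same class comparisons and cannot change a call.

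The family was dominated by *Sparc* and *Fn1*. Together the 8 genes made up 1.35% ± 0.176 of fibroblast transcripts (SD, n = 5 mice with at least 10 fibroblasts). *Sparc* held rank 7 of 15793 genes detected in fibroblasts by mean level, *Fn1* rank 20 and *Postn* rank 65. *Thbs1*, *Tnc* and *Thbs2* followed at ranks 594, 748 and 2301, whereas *Cthrc1* and *Spp1* were at ranks 12520 and 14959. In telocyte-like cells the family reached 1.62% ± 0.218 of transcripts and in pericyte-like cells 1.66% ± 0.353, compared with 1.16% ± 0.174 in iCAF-like cells and 0.973% ± 0.396 in other fibroblasts (SD, n = 3 mice each). Telocyte-like and pericyte-like values overlapped, as did those of iCAF-like cells and other fibroblasts, and the lowest telocyte-like value (1.38%) was above the highest iCAF-like one (1.30%). The telocyte-like values come from mice 1, 2 and 4 and the iCAF-like ones from mice 1, 2 and 5. Class and mouse are thus partly mixed in this comparison.

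**Figure D1:**
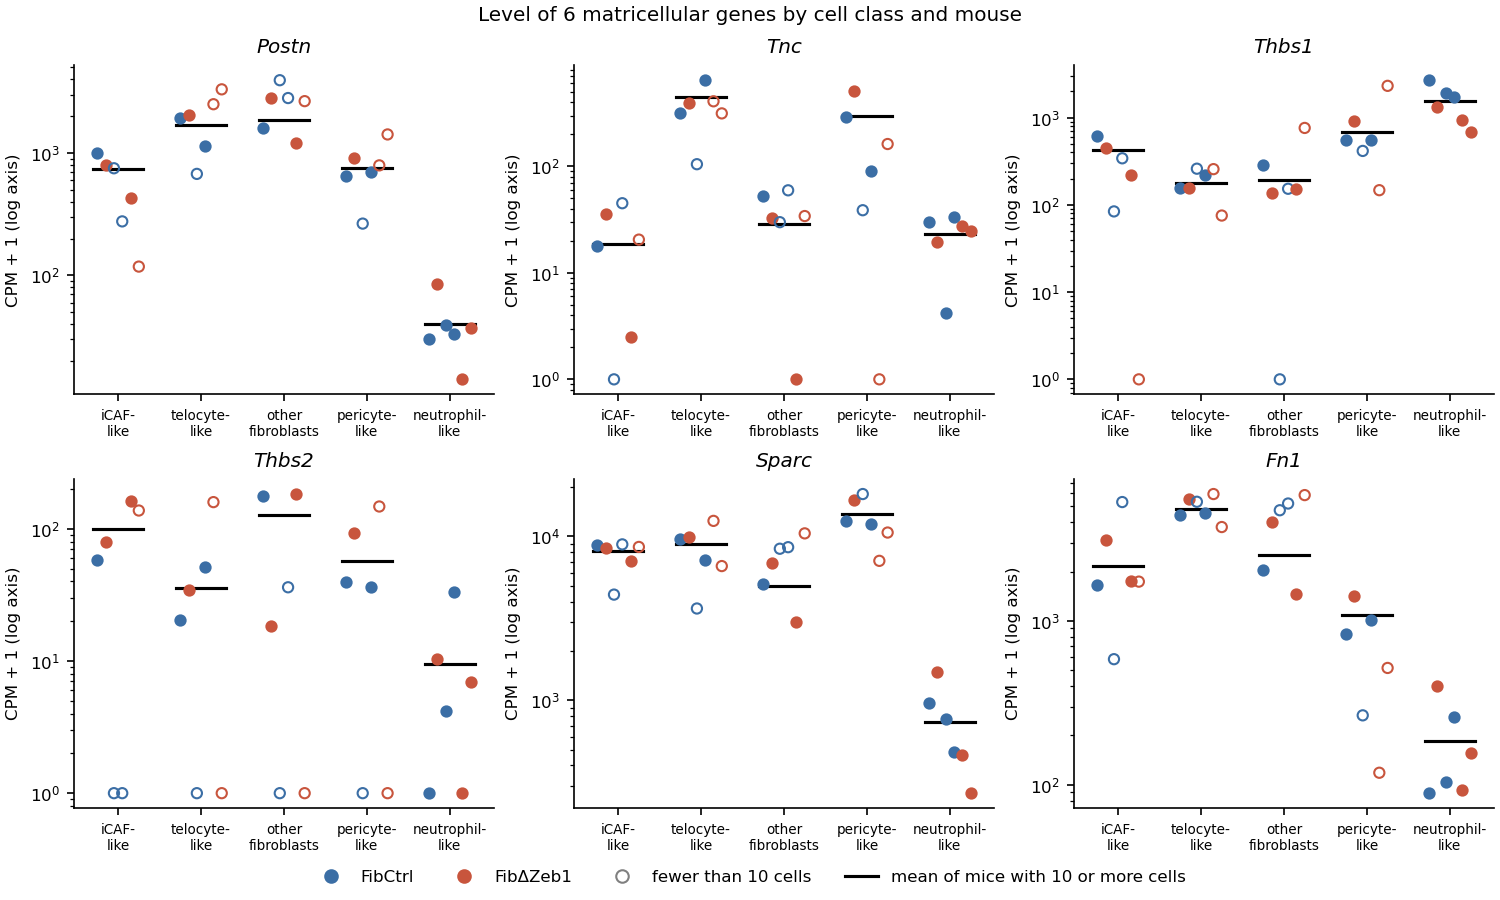
Level of 6 family members (CPM plus 1, log axis) in iCAF-like, telocyte-like, other fibroblast, pericyte-like and neutrophil-like sums of each mouse. Open points are sums of fewer than 10 cells and lines are means of the mice with at least 10 cells; *Tnc* sits at 316 to 642 in telocyte-like sums and at 0 to 51.6 in the iCAF-like and other fibroblast sums of at least 10 cells.

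*Sparc* encodes a collagen-binding protein that chaperones procollagen and counters adhesion. Its level was 8877, 8479 and 7103 CPM in the iCAF-like cells of mice 1, 2 and 5 and 9704, 9930.3 and 7211 CPM in the telocyte-like cells of mice 1, 2 and 4. These values overlapped, and the difference was -0.13 on the log2 scale (SE 0.23, edgeR quasi-likelihood test, adjusted p = 0.815). In CPM, telocyte-like cells were higher in 2 of 2 mice with both classes and in 3 of 6 with sums of any size. The fit and the CPM values of those 2 mice thus differ in sign, and no direction is read. The pericyte-like cells of mice 1, 2 and 4 held 12340.5, 16631 and 11974 CPM, each more than any fibroblast sum of at least 10 cells. Relative to the mean of the 3 fibroblast classes, *Sparc* was 1.72-fold higher in pericyte-like cells (log2 0.78, SE 0.17, adjusted p = 0.00181). It was higher in 3 of 3 mice and in 5 of 6 with sums of any size. In counts of mice at 10 cells, here and below, the pericyte-like cells of mouse 4 are set against its telocyte-like cells alone. No other fibroblast class of that mouse had at least 10 cells. The difference in *Sparc* no longer passed the threshold without mouse 2 (0.62, adjusted p = 0.0582) or with sums of at least 5 cells (0.37, adjusted p = 0.330). Other fibroblasts had the lowest levels, with 5119, 6868 and 3018 CPM in mice 1, 2 and 5. iCAF-like cells exceeded them 1.89-fold (log2 0.92, SE 0.20, adjusted p = 0.00877) in 3 of 3 mice. With sums of any size they were higher in 4 of 6 mice, and 9 of 15 alternatives kept this call. Here and below, the 15 alternatives include those without mouse 3 and without mouse 6, which repeat the main fit. The call of iCAF-like cells over other fibroblasts was among those that other alternatives lost. It was lost without mouse 1 (0.88, adjusted p = 0.0980), without mouse 5 (0.72, adjusted p = 0.125), with only the genes named mt- taken as mitochondrial (0.52), with a stricter marker gate (0.71), at 5 cells per sum (0.66) and without the mouse as a factor (0.84). Telocyte-like cells exceeded other fibroblasts 1.73-fold (log2 0.79, SE 0.22, adjusted p = 0.0417). They were higher in 2 of 2 mice with both classes but in 3 of 6 with sums of any size. Only 4 of 15 alternatives kept this call. It was lost on leaving out any one of mice 1, 2, 4 and 5 (adjusted p between 0.0641 and 0.450), with DESeq2, RLE scaling, the stricter gate, 5 or 20 cells per sum or no mouse factor, and with mt- genes only, where the difference was 0.35.

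Fibronectin, the product of *Fn1*, is the provisional matrix onto which cells attach through integrins and on which collagen is laid down. *Fn1* was at 4459, 5551 and 4547 CPM in the telocyte-like cells of mice 1, 2 and 4, and at 1665, 3114 and 1748 CPM in the iCAF-like cells of mice 1, 2 and 5. The 3 telocyte-like values lay above all 3 iCAF-like values, and the mean of 4853 ± 606 CPM compares with 2176 ± 814 CPM (SD, n = 3). The difference was 1.85-fold (log2 0.89, SE 0.22, adjusted p = 0.00865). It had the same direction in 2 of 2 mice with both classes and in 5 of 6 with sums of any size. The call was lost without mouse 1 (0.64, adjusted p = 0.377), at 5 cells per sum (0.95, adjusted p = 0.0831) and without the mouse factor (0.998, adjusted p = 0.0547). Other fibroblasts held 2054, 4039 and 1458 CPM in mice 1, 2 and 5, and telocyte-like cells were 1.84-fold above them (log2 0.88, SE 0.22, adjusted p = 0.0228). Telocyte-like cells were higher in 2 of 2 mice with both classes but in 4 of 6 with sums of any size. The call was again lost without mouse 1 (0.68, adjusted p = 0.583), and without mouse 5 (0.75, adjusted p = 0.0888). This call was also lost with mt- genes only (0.38, adjusted p = 0.363), at 5 cells per sum (0.95, adjusted p = 0.180) and without the mouse factor (0.91, adjusted p = 0.178). In pericyte-like cells *Fn1* stood at 833, 1425 and 1011 CPM and was 3.14-fold lower than in fibroblasts (log2 -1.65, SE 0.19, adjusted p = 9.82e-07). This was among the steadiest differences of the family, lower in 3 of 3 mice and in 6 of 6 when sums of any size are counted, and between -2.27 and -1.55 under all 15 alternatives. iCAF-like cells and other fibroblasts differed by -0.01 (SE 0.20, adjusted p = 0.991).

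Periostin (*Postn*) is an integrin ligand that promotes collagen crosslinking and is a classical gene of activated fibroblasts. In telocyte-like cells it was at 1920, 2043 and 1145 CPM in mice 1, 2 and 4, in other fibroblasts at 1588, 2811 and 1195 CPM in mice 1, 2 and 5, and in iCAF-like cells at 1004, 802 and 428 CPM in mice 1, 2 and 5. Every iCAF-like value lay below every value of the other fibroblast classes. *Postn* was 2.23-fold lower in iCAF-like cells than in other fibroblasts (log2 -1.16, SE 0.23, adjusted p = 0.00418), in 3 of 3 mice and, with sums of any size, in 6 of 6. It was not past the threshold without mouse 2 (-0.84, adjusted p = 0.159) or without the mouse factor (-1.18, adjusted p = 0.0977). Telocyte-like cells were 1.87-fold above iCAF-like cells (log2 0.90, SE 0.25, adjusted p = 0.0185), in 2 of 2 mice with both classes and in 5 of 6 with sums of any size. This call did not hold without mouse 2 (0.66, adjusted p = 0.278) or mouse 5 (0.81, adjusted p = 0.0584) or with DESeq2 (0.86, adjusted p = 0.0731), with mt- genes only (0.65, adjusted p = 0.0885) or without the mouse factor (1.02, adjusted p = 0.0629). Telocyte-like cells and other fibroblasts overlapped and differed by -0.26 (SE 0.25, adjusted p = 0.762). Pericyte-like cells, at 646, 916 and 701 CPM in mice 1, 2 and 4, were 1.97-fold below the mean of the 3 fibroblast classes (log2 -0.98, SE 0.22, adjusted p = 0.00219). They were lower in 3 of 3 mice and in 6 of 6 with sums of any size. That difference stayed past the threshold under all 15 alternatives, from -1.25 to -0.78. The mean of the classes is raised by telocyte-like cells and other fibroblasts. Pericyte-like and iCAF-like levels overlapped, at 754 ± 143 and 745 ± 292 CPM (SD, n = 3).

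Tenascin-C (*Tnc*), a hexameric protein that modulates adhesion to fibronectin, had the sharpest division between classes. Telocyte-like cells held 316, 394 and 642 CPM in mice 1, 2 and 4. iCAF-like cells held 17.0, 34.3 and 1.48 CPM in mice 1, 2 and 5, and other fibroblasts 51.6, 32.0 and 0 CPM. No value of the other fibroblast classes reached the telocyte-like range. The difference was 16.3-fold against iCAF-like cells (log2 4.03, SE 0.52, adjusted p = 1.36e-05) and 10.7-fold against other fibroblasts (log2 3.42, SE 0.49, adjusted p = 3.42e-04). With sums of any size, *Tnc* was higher in telocyte-like cells in 6 of 6 mice in both comparisons, and both stayed past the threshold under all 15 alternatives (3.66 to 4.55 and 2.96 to 4.33). Pericyte-like cells varied more between mice, at 288, 511 and 88.7 CPM in mice 1, 2 and 4. They were 3.81-fold above the mean of the fibroblast classes on the log scale (log2 1.93, SE 0.34, adjusted p = 1.80e-04). They were higher in 2 of 3 mice, and in 3 of 6 with sums of any size. The exception among the 3 was mouse 4, set against its telocyte-like cells alone (88.7 against 642 CPM). Without mouse 2 the difference was 1.11 (adjusted p = 0.115). Since the mean of the fibroblast classes is drawn down by the iCAF-like cells and other fibroblasts, the levels are best read beside the telocyte-like ones: 296 ± 211 CPM in pericyte-like and 451 ± 170 CPM in telocyte-like cells (SD, n = 3), ranges that overlap.

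Thrombospondin-1 (*Thbs1*) activates latent TGFβ and restrains angiogenesis through CD36 and CD47. Pericyte-like cells held 560.2, 923 and 559 CPM in mice 1, 2 and 4, iCAF-like cells 615, 449.8 and 217 CPM in mice 1, 2 and 5, and telocyte-like cells 156, 155 and 217 CPM in mice 1, 2 and 4. Values of other fibroblasts were 286, 137 and 152 CPM. Pericyte-like and iCAF-like sums overlapped at the upper end of the stroma, and telocyte-like cells and other fibroblasts at the lower end. *Thbs1* was 2.47-fold higher in pericyte-like cells than in fibroblasts (log2 1.30, SE 0.24, adjusted p = 3.78e-04), in 3 of 3 mice and in 5 of 6 with sums of any size. Without mouse 2 this difference was 0.52 (adjusted p = 0.279). It was 3.19-fold lower in telocyte-like than in iCAF-like cells (log2 -1.67, SE 0.33, adjusted p = 0.00121), and without mouse 1 the difference was -1.10 (adjusted p = 0.171). It was lower in 2 of 2 mice with both classes, but with sums of any size the telocyte-like value was higher in 3 of 6 mice (mice 3, 5 and 6). iCAF-like cells exceeded other fibroblasts 2.51-fold (log2 1.33, SE 0.31, adjusted p = 0.0125) in 3 of 3 mice and in 5 of 6 with sums of any size. That call was lost without mouse 1 (1.37, adjusted p = 0.0706), mouse 2 (1.11, adjusted p = 0.0680) or the mouse factor (1.27, adjusted p = 0.0937). *Thbs1* thus differed between telocyte-like and iCAF-like cells in the opposite direction to *Postn* and *Fn1*.

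Thrombospondin-2 (*Thbs2*), which clears matrix proteases through LRP1, had the lowest fibroblast mean of the 6 tested members, at 74.4 ± 52.9 CPM (SD, n = 5 mice). It was at 57.4, 78.1 and 162.5 CPM in the iCAF-like cells of mice 1, 2 and 5, at 19.6, 33.2 and 50.4 CPM in the telocyte-like cells of mice 1, 2 and 4, and at 177, 17.5 and 182 CPM in other fibroblasts. The iCAF-like and telocyte-like values did not overlap, but the difference of -1.17 (SE 0.59) did not pass the test (adjusted p = 0.239). None of the 4 comparisons of classes called *Thbs2*. Without mouse 2 it was called lower in telocyte-like cells than in iCAF-like cells (-1.92, adjusted p = 0.0359) and than in other fibroblasts (-2.71, adjusted p = 0.00662). In the other fibroblasts of mouse 1, a group of 6 cells carried 99.0% of its transcripts, and 66 of them were in 1 cell. In mouse 5 it was spread more widely, over 64 of 101 fibroblasts with 149 transcripts.

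**Figure D2:**
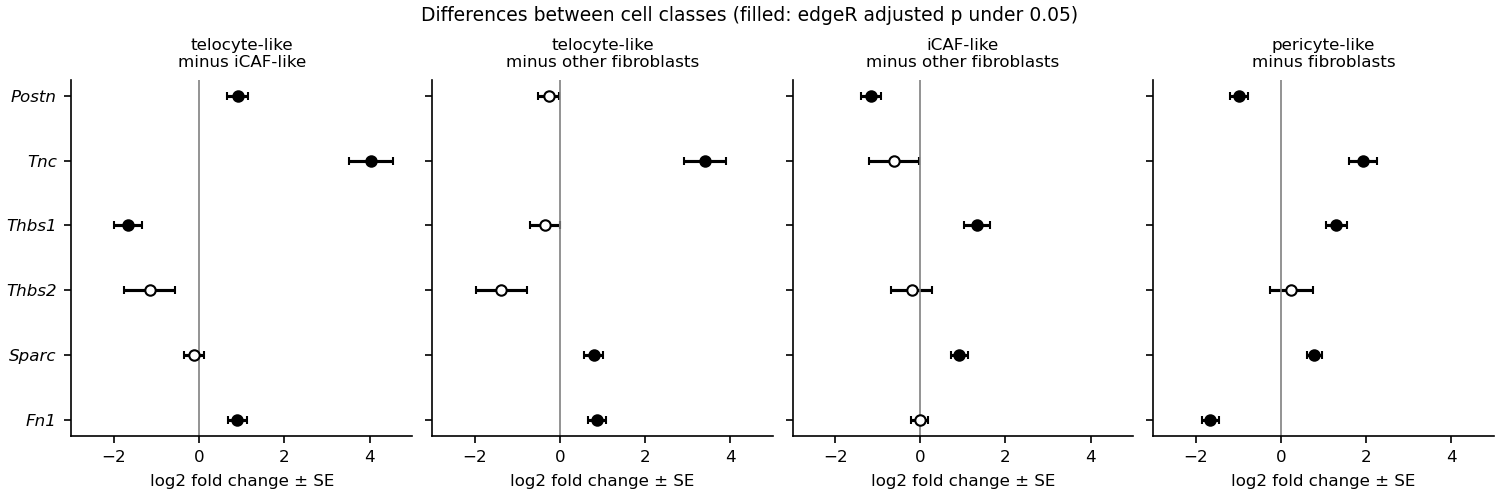
Log2 fold change ± SE (edgeR) of the 6 tested family members in the 4 comparisons of cell classes, each over the mouse and class sums of at least 10 cells, with filled points where the adjusted p is under 0.05. *Tnc* is the farthest to the right in both telocyte-like comparisons and *Fn1* the farthest to the left in pericyte-like cells.

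Counted over the 6 members that had enough counts for a test, telocyte-like cells had 3 higher and 1 lower than iCAF-like cells, where 13.7% of all 8384 tested genes were called (6.75% higher, 6.95% lower). Against other fibroblasts, telocyte-like cells had 3 members higher and 0 lower (4.54% of all genes called, 2.14% higher and 2.41% lower). iCAF-like cells had 2 members higher and 1 lower than other fibroblasts (5% called, 2.43% higher and 2.56% lower), and pericyte-like cells 3 higher and 2 lower than fibroblasts (21% called, 10.5% in each direction). The median log2 fold change of the 6 members was 0.38, 0.27, -0.11 and 0.51 in these 4 comparisons, beside 0.04, 0.03, -0.01 and 0.03 over all genes tested. The comparisons share their sums, and the first 3 are not independent of one another.

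The 2 remaining members were almost absent from the fibroblasts. *Cthrc1*, a secreted promoter of cell migration that marks activated fibroblasts in several organs, is not listed for the plate of mouse 3. It came to 12 transcripts in 10 fibroblasts, and 9 of these cells, with 11 transcripts, were iCAF-like. In iCAF-like cells this is 6.38, 7.62 and 1.48 CPM in mice 1, 2 and 5. It was found in 0 of 142 telocyte-like cells, which allows a share of up to 2.11%, and in 0 of 77 pericyte-like cells, which allows up to 3.90%. Osteopontin (*Spp1*), a secreted ligand of CD44 and integrins, came to 2 transcripts in fibroblasts, in 2 telocyte-like cells of mouse 2. It was found in 0 of 194 iCAF-like cells, which allows up to 1.55%. Its pericyte-like mean of 48.3 ± 83.6 CPM (SD, n = 3) rests on 2 cells of mouse 2 with 60 and 23 transcripts and 0 of the 7 listed macrophage markers each. These limits, 3 counts over the number of cells, bound the share of cells with a transcript detected, not of cells that express the gene, and like the intervals given for shares they cover counting error only.

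The sums do not tell whether more cells carried a transcript or each cell carried more, so cells were also thinned to 1000 barcodes each, which leaves out the shallower 123 of 426 neutrophil-like wells and none of the stromal cells of these classes. At this depth *Tnc* was detected in 21.1% of telocyte-like cells (exact 95% binomial interval 14.7 to 28.8) and 28.6% of pericyte-like cells (18.8 to 40.0). The pericyte-like share rests on mouse 2, with 19 of 42 cells, and was 8.57% (3 of 35 cells) without that mouse. *Tnc* was detected in 1.03% of iCAF-like cells (0.125 to 3.67) and 3.65% of other fibroblasts (1.20 to 8.31), from 2 and 5 cells, shares whose intervals overlap that of the 0.990% (0.205 to 2.87) of neutrophil-like wells, which are not known as a source of *Tnc* and are read here as background. *Postn* was detected in 57.7% of telocyte-like cells (49.2 to 66.0) and 65.7% of other fibroblasts (57.1 to 73.6), compared with 32.5% of iCAF-like cells (25.9 to 39.6) and 39.0% of pericyte-like cells (28.0 to 50.8). Its background in neutrophil-like wells was 2.97%. By mouse, the *Postn* share was 50.0%, 31.4% and 19.5% in iCAF-like cells of mice 1, 2 and 5. It was 62.3%, 73.2% and 37.5% in other fibroblasts of the same mice, higher in each. Telocyte-like shares were 62.5%, 71.2% and 33.3% in mice 1, 2 and 4. The ranges over mice thus overlapped between these classes, which the pooled intervals do not show. *Fn1* was in 90.1% of telocyte-like cells (84.0 to 94.5) and 51.9% of pericyte-like cells (40.3 to 63.5), *Sparc* in 94.9% to 99.3% of every stromal class. The background in neutrophil-like wells was larger for these 2 genes, at 12.2% for *Fn1* and 33.3% for *Sparc*. Over mice it ran from 6.62% to 25.5% for *Fn1* and from 21.4% to 74.5% for *Sparc*, with mouse 2 the highest for both. The share of cells with *Thbs2* was 3.52% to 8.25% in the stromal classes and 0.660% in neutrophil-like wells, and the iCAF-like share of 8.25% was 1.71% without mouse 5.

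**Figure D3:**
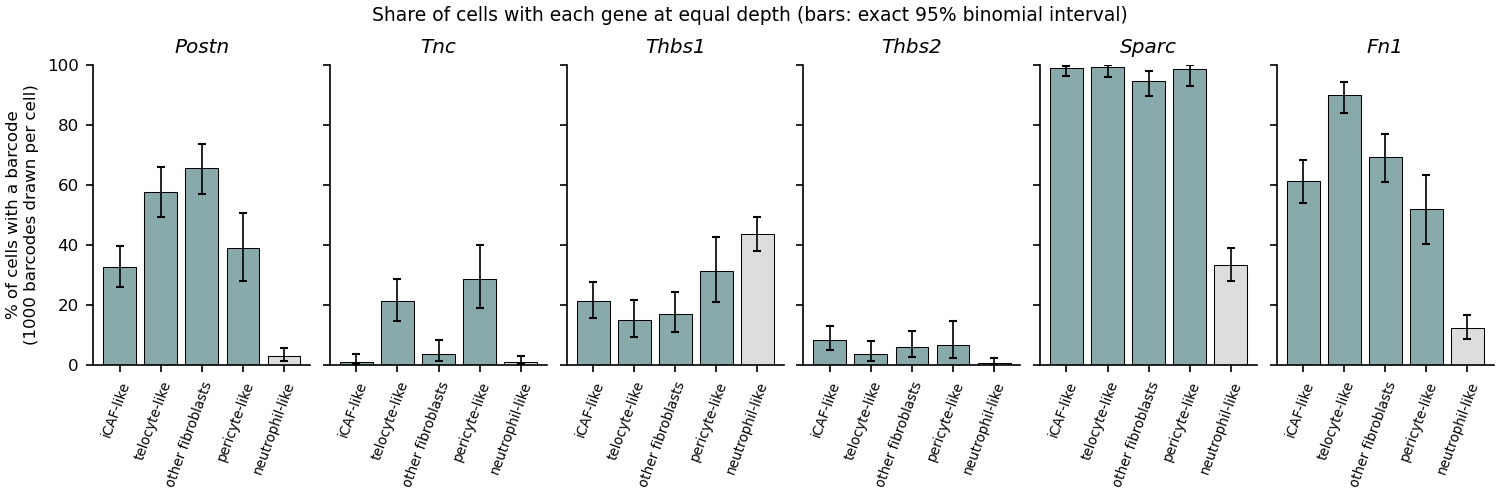
Percent of cells with at least 1 barcode of each gene after thinning every cell to 1000 barcodes, with exact 95% binomial intervals that cover counting error only, for 4 stromal classes and neutrophil-like wells. *Fn1* is at 90.1% of telocyte-like cells and *Tnc* at 21.1%, and both pooled shares are lower in iCAF-like cells. By mouse, *Fn1* ran from 83.3% to 96.6% in telocyte-like cells of mice 1, 2 and 4. In iCAF-like cells of mice 1, 2 and 5 it ran from 42.9% to 85.7%, so the ranges overlap.

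Before thinning, with medians of 10678.5 to 15519.5 barcodes per stromal cell and 1450 per neutrophil-like well, the shares were 59.9% of telocyte-like and 68.8% of pericyte-like cells for *Tnc*, and 7.22% of iCAF-like cells. *Postn* was in 83.8% of telocyte-like, 87.6% of other fibroblast and 67.5% of iCAF-like cells. For *Thbs1* the unthinned share was larger in telocyte-like (54.2%) than in iCAF-like cells (48.5%), while the thinned share was 14.8% against 21.1% and the summed level was higher in iCAF-like cells, so no order of shares is read for this gene.

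Expression was uneven within a class. The 10% of telocyte-like cells with the most *Tnc* held 60.1%, 78.7% and 36.2% of its transcripts in mice 1, 2 and 4, and a single cell of mouse 2 held 165. The median telocyte-like cell was at 52.1, 0 and 469 CPM of *Tnc* in these mice. *Thbs1* in iCAF-like cells was as concentrated, with 60.1%, 46.6% and 84.4% of transcripts in the top 10% of cells of mice 1, 2 and 5. *Fn1* was more evenly spread, and the median telocyte-like cell held 3080, 4672 and 3706 CPM in mice 1, 2 and 4. For *Sparc* the median pericyte-like cell was at 11263, 15158 and 10188 CPM.

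Other fibroblasts were a mixture. Those with the *Cxcl13* and *Grem1* list genes (35 cells in mouse 1 and 42 in mouse 2) had 1536 and 3032 CPM of *Postn*, 1833 and 3918 CPM of *Fn1*, but only 4.28 and 23.9 CPM of *Tnc* and 4.28 and 12.9 CPM of *Thbs2*. The remaining 18 and 14 cells of the same mice held 245 and 62.6 CPM of *Tnc* and 884 and 34.8 CPM of *Thbs2*, above the first subset in both mice. In mouse 5, 21 fibroblasts with *Myoc* and *Angptl7* transcripts had 89.1 CPM of *Postn* and 331 CPM of *Fn1*. The other 80 fibroblasts of that mouse had 966 and 2748 CPM. *Thbs2* went the other way, with 287 CPM in the 21 cells and 138 CPM in the rest. These subsets come from 1 or 2 mice and were not tested.

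FibCtrl and FibΔZeb1 fibroblasts were compared next. *Zeb1* itself (chromosome 18), as a check of the labels, was at 111, 167 and 101 CPM in the fibroblasts of FibCtrl mice 1, 3 and 4 and at 61.3, 77.1 and 40.4 CPM in those of FibΔZeb1 mice 2, 5 and 6. The means were 126 ± 35.5 and 59.6 ± 18.4 CPM (SD, n = 3 mice each), with no overlap and an exact two-sided permutation p = 0.1, the smallest that 3 against 3 mice allow. By class, with sums of any size, *Zeb1* was lower in FibΔZeb1 without overlap in iCAF-like and telocyte-like cells. In other fibroblasts the genotypes overlapped, at 50.5 ± 13.3 CPM in FibCtrl and 62.3 ± 29.0 CPM in FibΔZeb1 (SD, n = 3 mice each, exact permutation p = 0.5). Counts at the 3′ end need not fall in the deleted part of the gene, so residual counts do not measure the share of undeleted cells. Of the family, 0 members were called in fibroblasts, where 0% of 8296 genes passed in edgeR (116 genes at an unadjusted p under 0.05, and DESeq2 called 0, with 61). *Zeb1* was thus not called either, although its levels did not overlap. A gene without a call here can therefore still differ between the genotypes. All fibroblasts of a mouse were summed here, so a shift in the mixture of subtypes and a change within cells cannot be told apart.

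Fibroblast *Postn* was at 1414, 2397 and 1245 CPM in FibCtrl mice 1, 3 and 4 and at 1988, 815 and 2074 CPM in FibΔZeb1 mice 2, 5 and 6. The ranges of the genotypes overlapped, and the difference was 0.00 on the log2 scale (SE 0.36, exact permutation p = 1). *Fn1* was at 2528, 4157 and 4747 CPM in FibCtrl and 4514, 2330.5 and 3481 CPM in FibΔZeb1 fibroblasts, overlapping ranges (log2 -0.08, SE 0.29, exact permutation p = 0.7). *Sparc* varied little in either genotype, at 8052, 6281 and 7646 CPM and at 8648, 7438 and 8073 CPM (log2 0.18, SE 0.23, exact permutation p = 0.4).

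*Tnc* ranged from 45.5 to 478 CPM within FibCtrl, with 107 CPM in mouse 1, 45.5 in mouse 3 and 478 in mouse 4, and was at 198, 60.5 and 155 CPM in FibΔZeb1 mice 2, 5 and 6. The FibCtrl spread enclosed the FibΔZeb1 values (log2 -0.68, SE 0.65, exact permutation p = 0.9). Mouse 4, the highest, was also the mouse with the largest share of telocyte-like cells among its fibroblasts, 73.5%, and the part of that share in the level was not tested. *Thbs1* was at 399.5, 91.0 and 226 CPM in FibCtrl and at 219, 216 and 189 CPM in FibΔZeb1 mice, again enclosed (log2 -0.28, SE 0.42, exact permutation p = 0.7). *Thbs2* was at 80.6, 0 and 41.1 CPM against 38.9, 164 and 47.1 CPM (log2 0.70, SE 0.65, exact permutation p = 0.5). At standard errors of 0.65, differences of this size in *Tnc* and *Thbs2* were not detectable with these mice. The edgeR adjusted p was 0.999958 for each of the 6 members. The genotypes overlapped for all 6, against 6.27% of 8296 genes that did not overlap in fibroblasts, and every alternative gave 0 called members in fibroblasts, that without mouse 6 included.

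**Figure D4:**
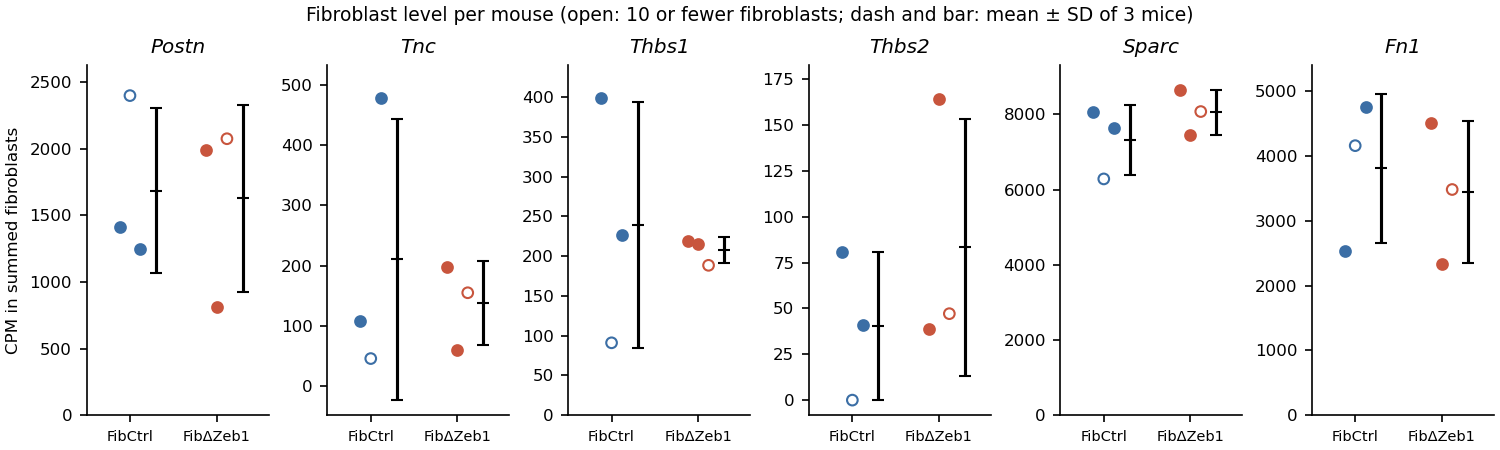
Fibroblast level (CPM) of 6 family members in each FibCtrl and FibΔZeb1 mouse, with mean ± SD; open points are mice 3 and 6 with 6 and 10 fibroblasts. The genotypes overlap for all 6 genes.

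Within subtypes, tests by genotype could be made only with sums of at least 5 cells. There, 0 members passed in iCAF-like (0% of 6981 genes called, 132 at an unadjusted p under 0.05), telocyte-like (0% of 7168, 231 unadjusted, 1 by DESeq2) or pericyte-like cells (0% of 2540, 34 unadjusted). *Postn* in telocyte-like cells was at 1920, 674 and 1145 CPM in FibCtrl mice 1, 3 and 4 and at 2043, 2501 and 3309 CPM in FibΔZeb1 mice 2, 5 and 6. The genotypes did not overlap, which was so for 9.28% of 8296 genes in this class, and mice 3, 5 and 6 gave 2, 8 and 5 cells. At least 5 cells per sum gave a log2 difference of 0.77 (SE 0.29, unadjusted p = 0.022 in edgeR, adjusted p = 0.999662), and the exact permutation p over all 6 mice was 0.1. Values of *Thbs2* in iCAF-like cells (0 to 57.4 CPM in FibCtrl, 78.1 to 163 in FibΔZeb1; 8.94% of genes did not overlap) and of *Postn* in pericyte-like cells (264 to 701 and 791 to 1416 CPM; 7.53%) did not overlap either, and likewise include sums of 1 to 6 cells. In other fibroblasts the genotypes overlapped for all 8 members (7.39% of genes did not overlap). The test of whether the telocyte-like minus iCAF-like difference depends on genotype called 0 members, with 0.0358% of 8384 genes called and 184 genes at an unadjusted p under 0.05. It rests on 1 FibCtrl iCAF-like sum (mouse 1) and 1 FibΔZeb1 telocyte-like sum (mouse 2), so that neither the spread within these arms nor the difference without either mouse can be estimated. The adjusted p was 1 for each of the 6 members.

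The 42 related genes are other matricellular genes, receptors and processing enzymes, and their counts stand beside the shares of all genes called. Telocyte-like cells had 3 of 14 tested matricellular relatives higher and 6 lower than iCAF-like cells, 6 of 16 receptors higher and 2 lower, and 2 of 4 enzymes higher and 0 lower (13.7% of all genes called). *Tgfbi*, an integrin ligand related in domain structure to periostin, was higher (log2 3.19, SE 0.34, adjusted p = 2.08e-06), at 904 ± 209.9 CPM against 118 ± 49.8 CPM. The collagen receptor subunit *Itga1* was higher (log2 4.08, SE 0.47, adjusted p = 4.21e-06). *Sparcl1*, the closest paralog of *Sparc*, was lower (log2 -3.48, SE 0.37, adjusted p = 1.70e-06), at 96.9 ± 44.9 against 1309.9 ± 390.5 CPM, although *Sparc* itself was not called. *Nov* (CCN3) was lower (log2 -3.20, SE 0.51, adjusted p = 1.54e-04). *Thbs4* came to 100 transcripts in 12 of 194 iCAF-like cells and 0 transcripts in 142 telocyte-like cells and 137 other fibroblasts, and passed both tests, so no fold is given.

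Against other fibroblasts, telocyte-like cells had 2 matricellular relatives higher and 2 lower, 4 receptors higher and 2 lower, and 1 enzyme higher and 0 lower (4.54% of all genes called). *Tgfbi* (log2 3.72, SE 0.35, adjusted p = 4.55e-06), *Wisp1* (2.33, SE 0.50, adjusted p = 0.00971), *Itga1* (2.28, SE 0.37, adjusted p = 0.00106) and the periostin and osteopontin receptor subunit *Itgb3* (2.06, SE 0.32, adjusted p = 6.49e-04) were higher and *Sparcl1* (-2.33, SE 0.38, adjusted p = 9.62e-04) was lower. In iCAF-like cells 5 matricellular relatives were higher and 0 lower than in other fibroblasts, 1 receptor was higher and 2 lower, and 0 of 4 enzymes were called (5% of all genes called). The hyaluronan and osteopontin receptor *Cd44* (log2 1.56, SE 0.24, adjusted p = 3.86e-04), *Nov* (1.79, SE 0.43, adjusted p = 0.0149) and *Sparcl1* (1.15, SE 0.33, adjusted p = 0.0444) were higher, and *Sdc1*, a syndecan that binds tenascin-C and fibronectin, was lower (-2.14, SE 0.37, adjusted p = 0.00124).

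In pericyte-like cells 4 matricellular relatives were higher and 4 lower than in fibroblasts, 5 receptors were higher and 6 lower, and 0 enzymes were higher and 1 lower (21% of all genes called). *Vtn* (vitronectin, log2 6.06, SE 0.52, adjusted p = 1.43e-08) and *Itga1* (4.01, SE 0.26, adjusted p = 3.10e-10) were higher. *Tnxb* (tenascin-X, -5.68, SE 0.48, adjusted p = 1.14e-08) and the crosslinking transglutaminase *Tgm2* (-3.11, SE 0.31, adjusted p = 1.26e-07) were lower. *Itga11*, a collagen receptor subunit of fibroblasts, came to 3 transcripts in 1 of 77 pericyte-like cells, in a mouse with fewer than 10 of them, and to 74 transcripts in 49 of 194 iCAF-like cells. By genotype, 0 of the related genes were called in fibroblasts.

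As a description, the genes whose level followed 7 of the 8 members most closely across the 12 mouse and class sums were found among 3504 candidates by Pearson's r of log2 (CPM + 10). The sums share mice and class markers, and r is given without a test. For *Postn* these were *Pitx1* (0.901), *Hpse* (0.888) and *Wnt4* (0.878), for *Fn1* *Pmepa1* (0.944), *Oaf* (0.922) and *Igsf3* (0.919), and for *Tnc* *Lama5* (0.956), *Ctsc* (0.934) and *Cd97* (0.925). *Sparc* was followed by *Ube2g1* (0.948), *Kif5b* (0.940) and *Eif3b* (0.936), and *Thbs2* by *1810022K09Rik* (0.780), *Rpl18* (0.776) and *Rps6* (0.768). The nearest genes of *Cthrc1* were *Tnpo3* (0.848), *Npy1r* (0.841) and *Arhgap21* (0.815) and those of *Spp1* were *Srsf3* (0.814), *Eif4g2* (0.805) and *Supt5* (0.759), both from very few transcripts. Within the family, *Postn* and *Fn1* had r = 0.69, *Tnc* and *Sparc* 0.65 and *Thbs1* and *Sparc* 0.63, whereas *Thbs1* had r = -0.66 with *Fn1* and -0.58 with *Postn*.

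Outside the stroma, *Thbs1* had a higher mean in neutrophil-like wells (1547 ± 728 CPM; SD, n = 6) than in any stromal class, although the ranges over mice overlapped with that of pericyte-like cells. It was at 2689.5, 1318, 1940.4, 1710.1, 934 and 689 CPM in mice 1 to 6. The 3 FibCtrl values (mice 1, 3 and 4) were all above the 3 FibΔZeb1 values, and genotypes did not overlap for 6.83% of 8296 genes in these wells. In epithelial-like sums of at least 10 cells it was at 652 ± 399 CPM (SD, n = 3). *Sparc* was at 739 ± 441 CPM, *Fn1* at 183 ± 124 CPM and *Postn* at 38.8 ± 23.7 CPM in neutrophil-like wells (SD, n = 6), each below every stromal class. *Sparc* was at 1065 to 3243 transcripts per 1000 of the fibroblast collagen gene *Col1a1* in these wells, against 1069.6 to 1321 in fibroblasts. For *Thbs1* the neutrophil genes *S100a8* and *S100a9* serve as the reference. Neutrophil-like wells held 9.91 to 35.7 transcripts of *Thbs1* per 1000 of *S100a8* and *S100a9*, and stromal sums with any such transcript held 1647 to 36188.

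**Figure D5:**
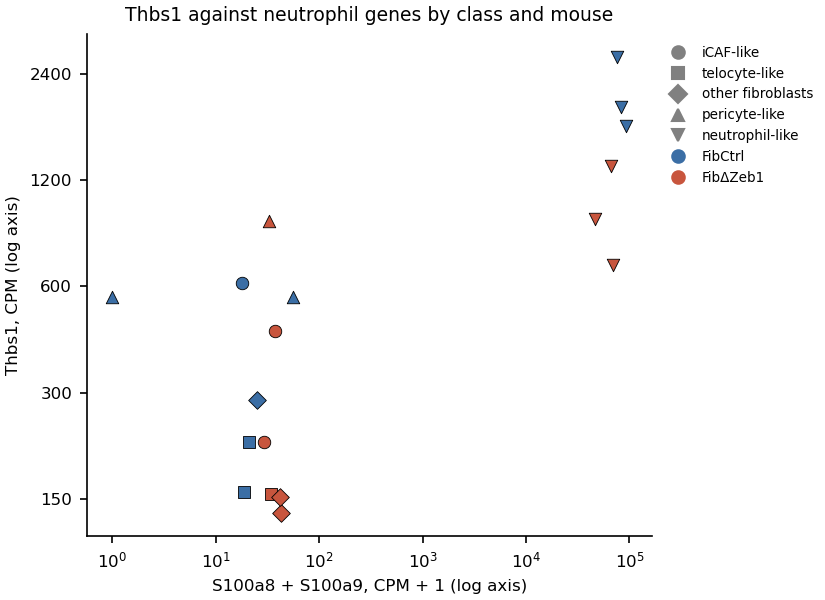
Level of *Thbs1* (CPM, log axis) against the summed level of *S100a8* and *S100a9* (CPM plus 1, log axis) in mouse and class sums. Neutrophil-like sums lie at 46801 to 93053 CPM of the neutrophil genes and the stromal sums shown at 54.5 CPM or below, so the classes are separated along the horizontal axis.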

How the data were processed

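Single cells from the AOM/DSS tumors of 6 mice, 1 plate each, were grouped by the genotype in the labels. Per the submitters' notes and methods, reads were assigned to wells and molecular barcodes, mapped with BWA against GRCm38 transcripts, and counts were made by the provider of the sequencing; Cell Ranger 2.1.1 is also named. One deposited table per plate holds raw counts (how many distinct barcodes each gene had in each well). From it the authors derived the second, of estimated counts corrected for barcode collisions, which was used here and rounded. Neither table was normalized, and spike-ins were left out. Counting on the transcriptome can split reads between genes with shared 3′ ends.

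Passing wells were classed by marker lists with none of the 8 genes: a fibroblast carried at least 6 of 10 fibroblast markers, under 5 pericyte and under 4 neutrophil or epithelial markers, a subtype at least 4 of 10 markers with a lead of 2, a pericyte-like cell at least 5 of 10 markers and under 8 fibroblast markers, and a neutrophil-like or epithelial-like well at least 4 of 7 or 9. These limits were set on the data: 19 fibroblasts sat exactly at the minimum, 18 wells were 1 marker short, and 72 subtype cells were at their minimum. Doublets were not searched for, since the sorter placed single cells in wells. CPM was computed here. Sums per mouse (at least 10 cells for classes, with the mouse as a factor, since classes of a mouse share its plate) were tested with edgeR 4.0.16 (R 4.3.3; filterByExpr, TMM factors, the quasi-likelihood test and Benjamini-Hochberg adjustment at 0.05, markers of the gates left out). SE was obtained as |log2 fold change| divided by the root of F. Exact permutation tests, two-sided, served for single values. DESeq2 1.42.0, other scaling and filters, the barcode counts and leaving out each mouse were alternatives. The fits were tested on simulated counts with 200 changed genes. The genotype fit recovered 15.5% of genes changed by 1 on the log2 scale and 83.5% of those changed by 2, with 7 false calls. The telocyte-like minus iCAF-like fit recovered 46.4% and 97.1%, with 1 false call. The simulation gave all genes the same spread, changed only genes above a floor of counts and held no other differences between mice or classes. Under these settings most genotype differences of 1 on the log2 scale were missed. The power for a single member was not estimated. All 8 genes are named, and of the related genes at most the 5 largest called per comparison. The 3 genes with the highest r are given for each member except *Thbs1*, for which they are not reported here. The members and lists were chosen with earlier results of these data known.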

Additional observations from a re-analysis of the deposited data

Results flagged for a closer look

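In all, 4 values outside the stromal classes exceeded the highest stromal level of the same gene. *Thbs1* was at 1547 ± 728 CPM (SD, n = 6 mice) in neutrophil-like wells, where the highest stromal class, pericyte-like cells, stood at 681 CPM. *Spp1* was at 580.1 ± 1380.4 CPM in wells that were not assigned, compared with 48.3 CPM in pericyte-like cells, and 488 of its 501 transcripts were in 1 well of mouse 1 with 2 of the 7 listed macrophage markers. *Cthrc1* was at 6.54 ± 11.3 CPM in epithelial-like wells (SD, n = 3), from 2 wells of mouse 4, and at 9.69 ± 12.9 CPM in wells that were not assigned, beside 5.16 CPM in iCAF-like cells, the highest stromal class. No explanation of these values was tested.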

How the results depend on the processing

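Of 15 called differences between classes, 185 of 225 alternative values kept direction and call, 40 lost the call and 0 reversed. Among these differences, 4 held in every alternative. Mice 3 and 6 had no sum of at least 10 cells. The alternatives without either mouse therefore repeat the main class fit, and their kept calls were fixed in advance. The mouse block was part of the class comparisons, since the sums of a mouse share a plate. Without the replicate block, called members numbered 2 for telocyte-like minus iCAF-like, 1 for telocyte-like minus other fibroblasts and 0 for iCAF-like minus other fibroblasts. The second of these was also 1 with mt- genes only as mitochondrial and with at least 5 cells per sum. On leaving out each mouse, called members ranged from 2 to 4, 1 to 3, 1 to 3 and 2 to 5 in the 4 class comparisons. The test of a genotype difference between subtypes could not be fitted without mouse 1 or mouse 2, and called 0 members without each of the other mice. With no filter on low counts, 1 member (*Spp1*) was called by genotype in pericyte-like cells, and 12 genes in fibroblasts rather than 0. Leaving out a mouse gave 386 to 1240 called genes for telocyte-like minus iCAF-like (1149 with all mice), 47 to 381 (381), 143 to 466 (419) and 925 to 1862 (1761) for the others in the same order.

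Directions that turned belong to values without a call. By genotype in fibroblasts, *Postn* was -0.19 with mt- genes only, -0.0078 with a stricter gate and -0.17 to 0.31 without single mice, and *Fn1* 0.22 with mt- genes only and -0.32 to 0.11 without single mice. Ranges without single mice were -1.14 to 0.57 for *Tnc*, -0.58 to 0.37 for *Thbs1* and -0.49 to 1.55 for *Thbs2*. For telocyte-like minus iCAF-like, *Sparc* was 0.19 at 5 cells. For telocyte-like minus other fibroblasts, *Thbs1* was 0.12 at 5 cells and -0.93 to 0.27 without single mice, and *Thbs2* -2.71 to 0.46. For iCAF-like minus other fibroblasts, *Tnc* was -1.29 to 0.22, *Thbs2* 0.15 with mt- genes only and -0.79 to 1.03, and *Fn1* 0.054 without the filter, 0.0055 at 5 cells and -0.18 to 0.18. For pericyte-like minus fibroblasts, *Thbs2* was -0.12 with DESeq2, -0.18 without the replicate block and -1.45 to 0.83. The cause of these changes was not tested. The subtype test by genotype at 20 cells and the genotype tests within subtypes at 10 and 20 cells gave no value. Mice 3 and 6 add few fibroblasts, which limits the genotype comparisons in fibroblasts.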

Other observations

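In a comparison made after its level had been seen, *Thbs1* in neutrophil-like wells was at 2689.5, 1940.4 and 1710.1 CPM in FibCtrl mice 1, 3 and 4 and at 1318, 934 and 689 CPM in FibΔZeb1 mice 2, 5 and 6. The genotypes did not overlap, as was so for 6.83% of 8296 genes in these wells. The log2 difference was -1.10 (SE 0.27, unadjusted p = 6.89e-04) and did not pass the test over 1363 genes (edgeR adjusted p = 0.604; DESeq2 adjusted p = 0.465), where 0 genes were called and 42 had an unadjusted p under 0.05. Leaving out single mice gave -1.39 to -0.93. These wells were sorted as CD45-negative, their number per mouse ran from 18 to 188, and they are not a class the sort was meant to collect.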
